A study of Mus musculus with 6 samples.

Results

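The data are peak positions from ChIRP-seq of *LncRNA-HIT*, a long noncoding RNA transcribed between *Hoxa11* and *Hoxa13*, and the genes described here are 9 components of the BMP pathway: the receptors *Bmpr1b*, *Bmpr1a*, *Bmpr2* and *Acvr1*, the ligands *Bmp2*, *Bmp4*, *Bmp7* and *Gdf5*, and the antagonist *Nog* (Noggin). They were chosen by name, with earlier results of these data known. All 9 were found among the 22367 protein-coding genes of the GENCODE annotation of the mouse build mm9. For each gene every limb and glial peak within 100 kb of the gene body was listed. *Bmpr1b* served as the reference because it was known to have several limb peaks.

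ChIRP uses biotinylated DNA oligonucleotides that hybridize to an RNA, so that the chromatin bound by this RNA is precipitated with it. The series holds 6 libraries. Chromatin of the distal limb buds of Swiss Webster mouse embryos at E 11, pooled from many animals, was hybridized with an odd and with an even set of the 25 probes, which gave 2 limb ChIRP libraries, and 1 limb input library was sequenced beside them. A murine glial cell line that the study describes as not expressing *LncRNA-HIT* was treated the same way, with 2 ChIRP libraries and 1 input library. The labels give the glial samples as Swiss Webster brain tissue at E 11.0, whereas their protocol gives E15.5, and neither was used. The authors merged odd and even ChIRP tracks into 1 track and then called peaks with the input as control, without describing this apart for the glial line. There is 1 list per tissue, with no replicate and no error on a peak. Read depth is unknown, and no difference between the tissues was tested. The files hold no expression values, so the tissues could not be checked by marker genes.

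BMPs are secreted dimers that bring together type I and type II serine/threonine kinase receptors. The activated type I receptor phosphorylates receptor-regulated Smad proteins, which enter the nucleus with *Smad4*, while secreted antagonists such as Noggin bind the ligands and keep them from the receptors. In the limb bud this pathway is needed for the condensation of mesenchyme into cartilage, and *Gdf5* acts mainly through *Bmpr1b* in digit and joint formation.

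Limb peaks lay within 100 kb of 3 of the 9 genes, *Bmpr1b* with 4 peaks, *Gdf5* with 3 and *Nog* with 1. The other 6 genes, *Bmpr1a*, *Bmpr2*, *Acvr1*, *Bmp2*, *Bmp4* and *Bmp7*, had none. Of all protein-coding genes, 24% had a limb peak within this distance, and of the 9 genes 33.3% did. The 33.3% includes *Bmpr1b*, which was known beforehand to have limb peaks, so it only describes the 9 genes. Each of the 3 genes also had a limb peak within 25 kb, where the share of all protein-coding genes was 9.94%, so how the 9 genes compare with the background depends on the window. Only *Bmpr1b* had a peak within the gene body, which 4.72% of all protein-coding genes had. Only *Bmpr1b* had peaks at the study threshold, a p-value of 5.9e-57 or smaller, which 7.47% had. Because *Bmpr1b* was taken as the reference for its limb peaks, both statements are descriptive only. Peak strength is given as −log10(p), which is the deposited score divided by 10.

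4 of these 8 limb peaks are shown by sequence, on the plus strand of mm9 from 5′ to 3′, because they are the strongest at *Bmpr1b* outside untranslated sequence, the strongest at *Gdf5* and the one at *Nog*. For peaks wider than the stretch shown, the central 300 bases are given. The *Bmpr1b* intronic peak is shown at chr3:141506976-141507275, the intronic part of the *Bmpr1b* exon peak at chr3:141505597-141505848, the *Gdf5* downstream peak at chr2:155764048-155764347 and the *Nog* downstream peak at chr11:89142125-89142424. Capitals mark the 20 bases most similar to a ChIRP probe, where at least 15 of them matched.
Bmpr1b intronic peak: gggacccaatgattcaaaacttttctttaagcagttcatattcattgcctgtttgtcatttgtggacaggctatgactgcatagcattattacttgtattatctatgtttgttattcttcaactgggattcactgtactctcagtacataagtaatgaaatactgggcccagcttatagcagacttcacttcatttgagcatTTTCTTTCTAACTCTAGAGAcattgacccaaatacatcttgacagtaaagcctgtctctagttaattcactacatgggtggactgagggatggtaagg
Bmpr1b exon peak, intronic part: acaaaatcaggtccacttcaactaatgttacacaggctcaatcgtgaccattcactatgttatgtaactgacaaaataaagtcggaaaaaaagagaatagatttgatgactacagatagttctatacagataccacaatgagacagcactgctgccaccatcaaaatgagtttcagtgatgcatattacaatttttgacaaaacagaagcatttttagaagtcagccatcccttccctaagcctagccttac
Gdf5 downstream peak: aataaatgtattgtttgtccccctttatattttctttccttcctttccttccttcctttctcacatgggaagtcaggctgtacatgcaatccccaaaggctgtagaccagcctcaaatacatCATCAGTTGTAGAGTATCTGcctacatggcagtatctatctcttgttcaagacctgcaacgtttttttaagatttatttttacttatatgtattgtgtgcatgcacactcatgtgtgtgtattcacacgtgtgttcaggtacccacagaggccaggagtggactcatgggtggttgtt
Nog downstream peak: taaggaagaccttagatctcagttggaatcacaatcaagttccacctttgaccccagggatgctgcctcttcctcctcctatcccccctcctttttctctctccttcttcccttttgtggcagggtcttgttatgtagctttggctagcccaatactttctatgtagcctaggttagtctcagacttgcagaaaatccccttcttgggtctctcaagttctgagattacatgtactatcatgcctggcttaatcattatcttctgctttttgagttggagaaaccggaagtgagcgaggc

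*Bmpr1b* encodes a type I receptor needed for the cartilage of the digits. The gene lies on the minus strand of chromosome 3 from 141500100 to 141832389 and is 332 kb long. Its 4 limb peaks were all at its 3′ end, in a span of 14.4 kb. The strongest, from 141506899 to 141507353, lay in an intron and had a −log10(p) of 83.3, rank 215 of the 2880 limb peaks. A peak from 141505597 to 141506002 had a −log10(p) of 41.5 at rank 1234 and covered a whole coding exon of 131 bases, the exon before the last. This exon is annotated as untranslated in 1 transcript, which is marked for nonsense-mediated decay. A peak from 141500471 to 141500853 had a −log10(p) of 19.8 at rank 2034 and lay in the 3′ untranslated part of the last exon, which only the longest annotated form of that exon reaches. The remaining peak, from 141492972 to 141493401, lay 6.70 kb beyond the 3′ end of *Bmpr1b* and had a −log10(p) of 56.3. At rank 773 it was just inside the study threshold, which 774 limb peaks met. The 4 peaks therefore spanned the upper and the lower part of the list, and 2 of them met the threshold.

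The 3 peaks inside *Bmpr1b* were confined to the 7.25 kb next to its 3′ end, 2.18% of the gene body, and the remaining 325 kb up to the 5′ end held no limb peak. Neighbouring peaks were between 0.897 kb and 7.07 kb apart. The peak beyond the gene lay in the last of the 16 exons of *Unc5c*, a netrin receptor gene, within its 3′ untranslated region. *Unc5c* is read from the plus strand, from 141128528 to 141497888, so the genes run towards each other and their 3′ ends are 2.21 kb apart. The 4 peaks thus lay on both sides of a gap between convergent genes, and which of the genes a peak belongs to cannot be told from its position.

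**Figure D1:**
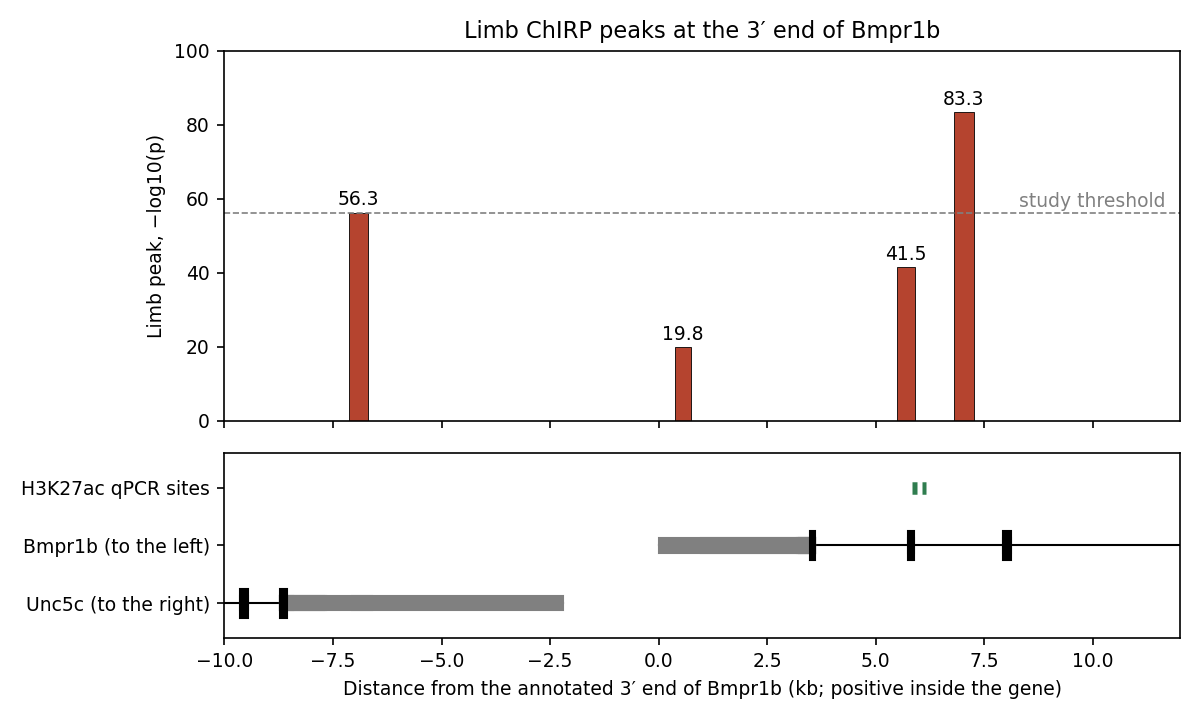
Limb peaks at the 3′ end of *Bmpr1b*. The upper panel plots the −log10(p) of each limb peak against its distance in kb from the annotated 3′ end of *Bmpr1b* (bar width is peak width, dashed line the study threshold), and the lower panel shows the genes with coding exons in black and untranslated exons in grey, with the sites of the H3K27ac primers in green. The peaks of 83.3 and 41.5 lie within the gene, that of 19.8 in its last exon and that of 56.3 in the last exon of *Unc5c*.

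The distance to a start site depends on the transcript. From the outermost 5′ end of *Bmpr1b* the peaks lay at least 325 kb away. The 6 annotated transcripts start at several sites, and the nearest to the peaks, 238 kb inside the gene, was 87.1 kb from the edge of the intronic peak. With distances taken from the outermost 5′ end, *Bmpr1b* had 0 limb peaks within 100 kb, and with those from the start of any transcript it had 3, of which 1 met the threshold.

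The glial list had no peak within 100 kb of *Bmpr1b*. The nearest, with a −log10(p) of 77.2, lay 199 kb beyond the 3′ end, and the distance from each of the 4 limb peaks to it was 192 to 206 kb. None of the 4 therefore overlapped a glial peak, and 3.85% of all 2880 limb peaks did. Over the window of 0.532 Mb the density was 7.51 limb peaks per Mb, against 1.12 over the chromosomes without unknown bases, where the glial density was 1.14. Over their shorter windows *Gdf5* (0.204 Mb) had 14.7 and *Nog* (0.202 Mb) 4.95 limb peaks per Mb, and the other BMP genes had none. A density above that of the chromosomes was therefore not particular to *Bmpr1b*.

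As many limb peaks as at *Bmpr1b*, or more, were found within 100 kb of 107 protein-coding genes (0.478%). Long genes have wider windows. Of the 441 protein-coding genes at least as long as *Bmpr1b*, 53.5% had a limb peak and 4.99% had 4 or more. By spacing, 2.31% of all runs of 4 consecutive limb peaks on a chromosome were as short as the one at *Bmpr1b*. These runs formed 19 separate stretches, of which 13 had no peak that overlapped a glial peak. Since *Bmpr1b* was taken as the reference for its several limb peaks, these values describe it and support nothing further.

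By the number of all limb peaks, of limb peaks at the threshold and of glial peaks within 100 kb, 4 protein-coding genes had the same counts as *Bmpr1b*, which were 4, 2 and 0. These were *Ppfia2*, *Fancc*, *Zbtb40* and *Tnp1*, with gene bodies from 0.817 kb to 468 kb. Their peaks were spread more widely, over 585 kb at *Ppfia2*, 293 kb at *Fancc*, 148 kb at *Tnp1* and 114 kb at *Zbtb40*. A further 48 genes differed from *Bmpr1b* by 1 in 1 of these counts. *Unc5c*, which shares the 4 limb peaks and has 1 glial peak, is named among them because its gene body was the closest in length.

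The study designed primers for a pair of sites at *Bmpr1b* to measure H3K27ac, a mark of active regulatory chromatin. When placed on mm9, these sites lay from 141505937 to 141506040 and from 141506158 to 141506263. The first shared 66 of its 104 bases with the limb peak of 41.5 over the coding exon. The second lay between this peak and the intronic peak of 83.3, at 156 bp from the former and 636 bp from the latter, and overlapped no peak. Only the position of the primers was used, and H3K27ac was not analysed here.

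The other receptors had no limb or glial peak within 100 kb. *Bmpr1a* encodes the other main BMP type I receptor of the limb and lies on the minus strand of chromosome 14 from 35223920 to 35316527. Its nearest limb peak was 370 kb downstream, over the first exon of *Gm5460*, with a −log10(p) of 67.8. *Bmpr2*, which encodes the type II receptor specific to BMPs, extends from 59821481 to 59927703 on chromosome 1 (plus strand). Its nearest limb peak was 331 kb downstream, within *Nbeal1*, with a −log10(p) of 72.3. These peaks were strong but far from the receptors.

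*Acvr1* encodes a type I receptor that binds several BMPs and lies on the minus strand of chromosome 2 from 58241055 to 58419568. It came closest to the limit from outside. Its nearest limb peak, from 58525371 to 58525778 within *Upp2*, was 106 kb upstream and had a −log10(p) of 38.5. The nearest glial peaks of *Bmpr1a*, *Bmpr2* and *Acvr1* were 463 kb, 1900 kb and 1930 kb away. Among the 4 receptor genes, limb peaks were therefore listed near *Bmpr1b* alone.

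*Gdf5*, a ligand of *Bmpr1b* that is expressed where joints form, is 4.34 kb long and lies on the minus strand of chromosome 2 from 155766759 to 155771103. It had 3 limb peaks, and none was in the gene. The strongest, from 155763996 to 155764399, lay 2.36 kb downstream and had a −log10(p) of 40.02 at rank 1276. The other peaks were upstream, at 84.8 kb from 155855874 to 155856300 with a −log10(p) of 21.8 and at 93.3 kb from 155864371 to 155864753 with 11.8. Both lay in introns of *Fer1l4*, a gene of the ferlin family, so that only the downstream peak was close to *Gdf5*. The protein-coding gene nearest to the downstream peak was *Gm15557*, at 2065 bp. The peak at 93.3 kb was the farthest of those inside the limit.

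*Gdf5* was the only one of the 9 genes with peaks in both lists. Its glial peak, from 155751596 to 155752028, lay 14.7 kb downstream in an intron of *Uqcc*, which encodes an assembly factor of a mitochondrial complex, and had a −log10(p) of 71.5, rank 316 of the 2919 glial peaks. It met the study threshold, while none of the 3 limb peaks did. The limb and glial peaks downstream of *Gdf5* were 12 kb apart and did not overlap. The tissues have separate lists, and their scores are set side by side without a comparison.

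*Bmp2*, *Bmp4* and *Bmp7* are expressed in the limb bud and its interdigital tissue. *Bmp2* extends from 133377895 to 133388621 on chromosome 2 (plus strand). It had a glial peak 3000 bp downstream, from 133391621 to 133392002, with a −log10(p) of 14.2 at rank 2341, and no limb peak closer than 204 kb upstream, where a weak one had a −log10(p) of 9.03. *Bmp2* thus had a peak within the limit in the control list and none in the limb list.

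*Bmp4* lies on the minus strand of chromosome 14 from 47003195 to 47010344 and had the most distant limb peak of the 9 genes, 534 kb downstream with a −log10(p) of 17.1, for which the nearest protein-coding gene was *Ddhd1* at 191 kb. *Bmp7* lies on the minus strand of chromosome 2 from 172693513 to 172765822. Its nearest limb peak, 198 kb downstream and 111 kb from the transcription factor gene *Tcfap2c*, was strong, with a −log10(p) of 82.6 at rank 229, and its nearest glial peak was 157 kb upstream with 17.9. Neither gene had a peak of either tissue within the limit.

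*Nog*, the BMP antagonist, is 1.92 kb long and lies on the minus strand of chromosome 11 from 89161952 to 89163873. It had 1 limb peak, 19.5 kb downstream from 89142071 to 89142478, with a −log10(p) of 20.1 at rank 2019. No protein-coding gene was nearer to this peak than *Nog*. The nearest glial peak was 219 kb from *Nog*.

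**Figure D2:**
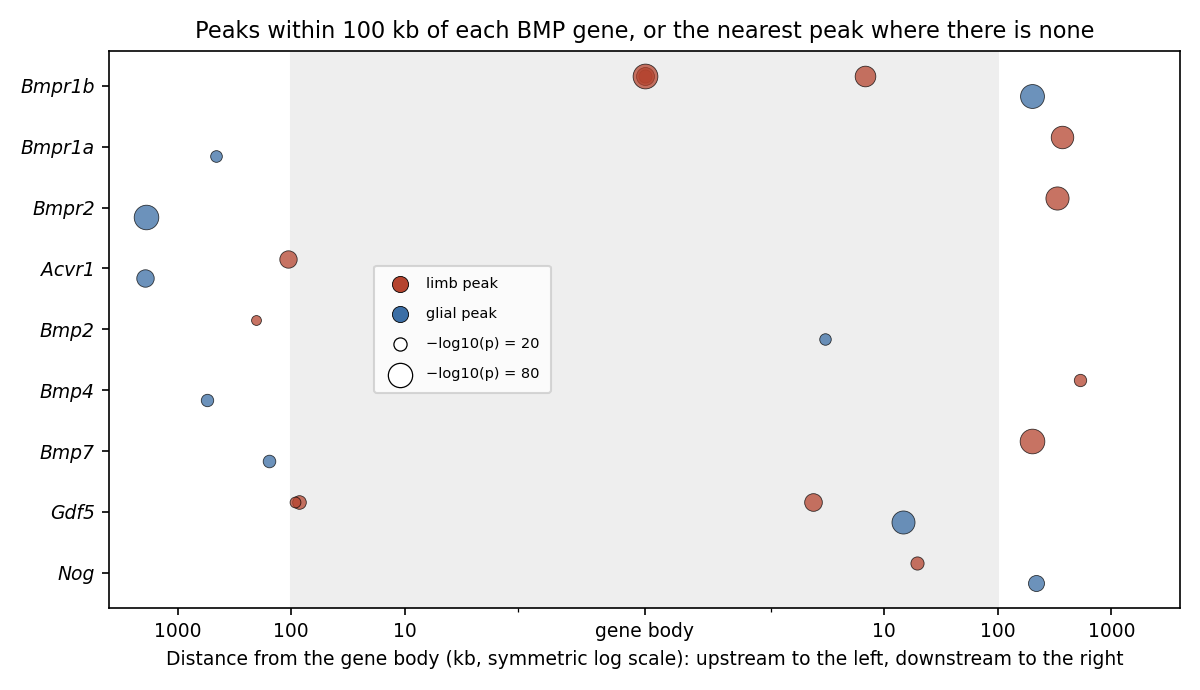
Peaks of the limb list (red) and of the glial list (blue) by distance in kb from the body of each of the 9 BMP genes, on a symmetric log scale, with point area rising with −log10(p) and the window of 100 kb shaded. Where a gene has no peak of a list within 100 kb, the nearest is drawn. Limb peaks fall in the shaded window for *Bmpr1b*, *Gdf5* and *Nog*, and glial peaks for *Bmp2* and *Gdf5*.

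Glial peaks lay within 100 kb of 2 of the 9 genes (22.2%), and 20.9% of all protein-coding genes had one. Within 25 kb the 9 genes had the same count, and the share of all protein-coding genes was 8.70%. Neither list had a peak near 5 of the genes, *Bmpr1a*, *Bmpr2*, *Acvr1*, *Bmp4* and *Bmp7*. The share of all protein-coding genes with peaks in both lists, or in neither, is not given here. The count therefore only describes these genes.

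The 8 limb peaks near the BMP genes had a median −log10(p) of 30.9, against 34.9 over the whole limb list, and 2 of the 8 met the study threshold, as 26.9% of all limb peaks did. None of the 8 overlapped a glial peak, and 3.85% of all limb peaks did. Apart from the upper pair at *Bmpr1b*, they lay in the middle and lower part of the list.

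**Figure D3:**
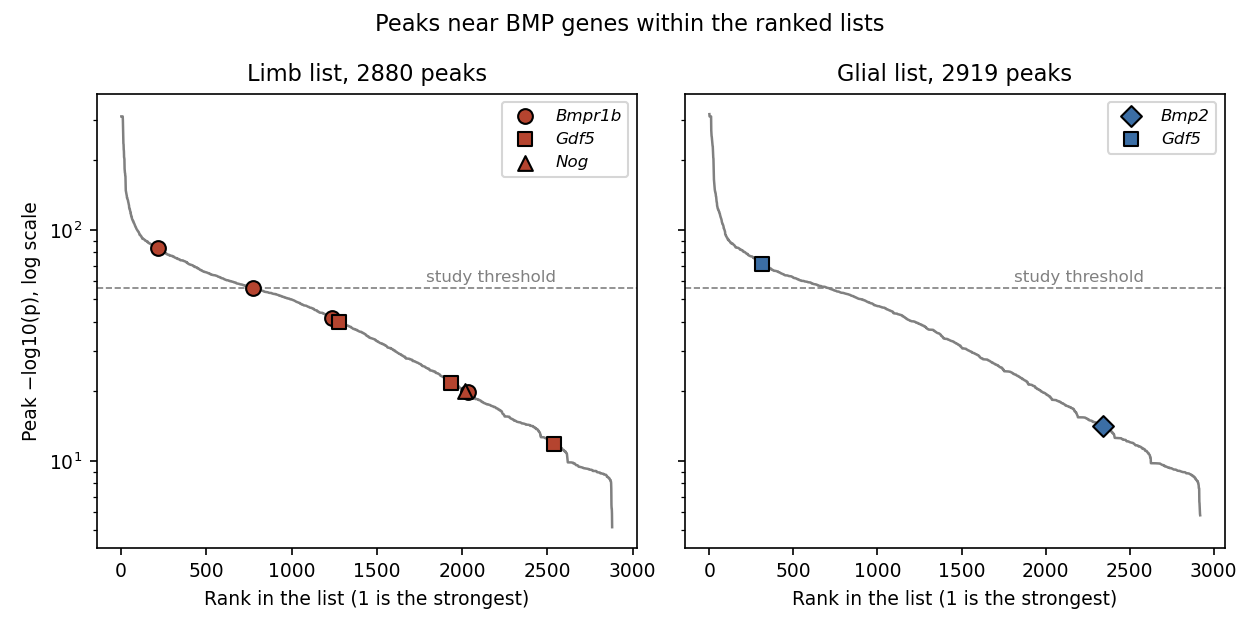
Peak −log10(p) on a log axis against rank for the limb list (left) and the glial list (right), with the peaks within 100 kb of a BMP gene marked and the study threshold dashed. In the limb list 2 peaks of *Bmpr1b*, 83.3 and 56.3, are at or above the line, and in the glial list the peak of *Gdf5*, 71.5, is above it.

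The limb peaks were also compared by sequence. Their GC content ran from 36.7% at the intronic *Bmpr1b* peak to 52.7% at the farthest *Gdf5* peak, and the median of all limb peaks was 44.0%. As a measure of repeated sequence, each peak was cut into overlapping 24-base words, and the percentage of these words with a further copy in the genome was taken. It was 0 in the 3 peaks inside *Bmpr1b* and 1.97% in the peak within *Unc5c*. At *Gdf5* it was 11.8% in the downstream peak, 31.4% in the upstream peak of 21.8 and 0 in that of 11.8, and at *Nog* it was 2.08%. The median over all limb peaks was 0.988%. Less than 10% repeated words were found in 73.9% of all limb peaks and in 6 of the 8 peaks near the BMP genes. The *Gdf5* peak of 21.8 held an unbroken alternation of T and G, or A and C, of 35 bases, and a run of at least 20 bases of this kind was found in 5.62% of all limb peaks.

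The 8 peaks had little sequence in common with each other. Over the 28 pairs the longest run of identical bases on either strand was 8 to 12 bases, and over the 6 pairs of *Bmpr1b* peaks it was at most 10.

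With a cutoff of 15 matching bases of 20, 2 of the 8 peaks resembled a ChIRP probe, and 18.0% of all limb peaks did. One was the intronic *Bmpr1b* peak, which matched probe 19 of the odd set at 16 bases on the minus strand from 141507178 to 141507197. The other was the *Gdf5* peak 2.36 kb downstream, which matched probe 2 of the even set at 16 bases on the minus strand from 155764170 to 155764189. They are shown in the direction of the probe, with identical bases in capitals, since within the 8 limb peaks these sites most resembled a probe.
Bmpr1b site: tCTCTAGAGTTAGaAAGaaA
probe 19: aCTCTAGAGTTAGgAAGgtA
Gdf5 site: CaGATACTCtACAACTGaTg
probe 2: CtGATACTCaACAACTGgTt

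The *Bmpr1b* site held a run of 12 identical bases. Neither peak matched a probe of the other set at more than 13 of 20 bases, and the other 6 peaks matched none at more than 14. A match describes the sequence, and its part in the peaks was not tested.

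The other genes of the pathway were read in the same way. Of 58 further genes, 12 (20.7%) had a limb peak within 100 kb and 13 (22.4%) a glial peak, against 24% and 20.9% of all protein-coding genes. Within 25 kb the limb share was 3.45%, against 9.94%. Peaks of both lists lay near *Acvrl1*, *Chrdl1* and *Smad6*, and 36 of the 58 genes had neither. No share of all protein-coding genes is given for both or neither, so these counts are descriptive only. A limb peak at the study threshold lay near 4 of the 58 genes (6.90%), against 7.47% of all protein-coding genes. The one near *Chrdl1* overlapped a glial peak. A limb peak within the gene body was found for *Smad6* alone (1.72%, against 4.72%).

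Among 6 other receptors and co-receptors, 2 had a limb peak. *Acvrl1*, a type I receptor of endothelial cells, had one 19.9 kb downstream with a −log10(p) of 30.9. *Hfe2*, a co-receptor that controls iron metabolism, had one 42.1 kb upstream with 14.3. Other protein-coding genes were nearer to these limb peaks, *Acvr1b* at 8.45 kb and *BC107364* at 30.4 kb. The glial list had a peak of 33.7 at 6.58 kb from *Acvrl1* and 3 peaks near the type II receptor *Acvr2b*, of which the strongest, 60.8, was 47.8 kb downstream. None of these limb peaks met the study threshold.

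Of 13 other ligands, 3 had a limb peak (23.1%), and each had one at the threshold, which 7.47% of all protein-coding genes had. *Gdf6*, a close relative of *Gdf5*, had limb peaks at 45.0 kb and 46.0 kb downstream with −log10(p) values of 50.2 and 70.4. Both were nearer to *Gm17492*, at 13.3 kb and 12.2 kb. *Gdf7*, of the same subfamily as *Gdf6*, had a limb peak 26.8 kb upstream, in an intron of *Hs1bp3*, with 59.6. The limb peak of *Gdf2*, a circulating ligand made in the liver, lay 93.5 kb downstream and is the same peak over *Gm5460* that was nearest to *Bmpr1a*. None of the 3 ligands had a glial peak within 100 kb, and the only ligand with one was *Bmp5*, 15.8 kb downstream with a −log10(p) of 141.

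Of 15 extracellular inhibitors and modulators, 3 had a limb peak. The strongest was 88.6 kb upstream of the BMP antagonist *Chrdl1* with a −log10(p) of 73.5, and it overlapped a glial peak of 59.2. The protein-coding gene nearest to both was *Pak3*, at 35.3 kb. Both peaks of *Chrdl1* were rich in repeats, with 29.5% and 31.2% of their 24-base words found elsewhere. *Fstl3*, a follistatin-like antagonist, had a limb peak of 25.6 at 47.0 kb, in an intron of *Hcn2*. *Dand5*, a secreted antagonist of the Cerberus family, had one of 20.4 at 58.4 kb, in a coding exon of *Gcdh*. The 5 genes with a glial peak were *Chrdl1*, *Chrdl2*, *Fstl1*, *Sost* and *Cer1*.

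No limb peak lay near any of the 6 intracellular transducers. The glial list had a pair of peaks at *Smad4*, the shared partner of the receptor-regulated Smads, 1 in the gene with a −log10(p) of 19.5 and 1 at 2.74 kb upstream with 60.2. Of 8 intracellular inhibitors 3 had limb peaks. *Smad6*, an inhibitory Smad, had 2 in its body with −log10(p) values of 28.3 and 13.7, and 2 glial peaks upstream, of which the stronger, 40.5, was 26.3 kb away. *Smad7*, the other inhibitory Smad, had a limb peak of 14.2 at 26.4 kb, to which *Ctif* was nearer, at 8.63 kb. *Ski*, a corepressor that binds Smads, had a limb peak of 13.9 at 82.2 kb, in the last exon of *Pex10*. All limb peaks of the inhibitors were below the study threshold.

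Of 10 transcriptional targets 1 had a limb peak, *Id3*, which encodes an inhibitor of differentiation. The peak was 98.7 kb downstream in the last exon of *Asap3*, with a −log10(p) of 56.1 at rank 778, just below the study threshold. Its relatives *Id1* and *Id2* had glial peaks, of 30.4 at 55.8 kb and of 87.4 at 46.6 kb, in introns of *H13* and *Kidins220*. *Hey1*, a transcriptional repressor, had a glial peak of 33.6 at 64.9 kb. No target therefore had peaks in both lists.

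**Figure D4:**
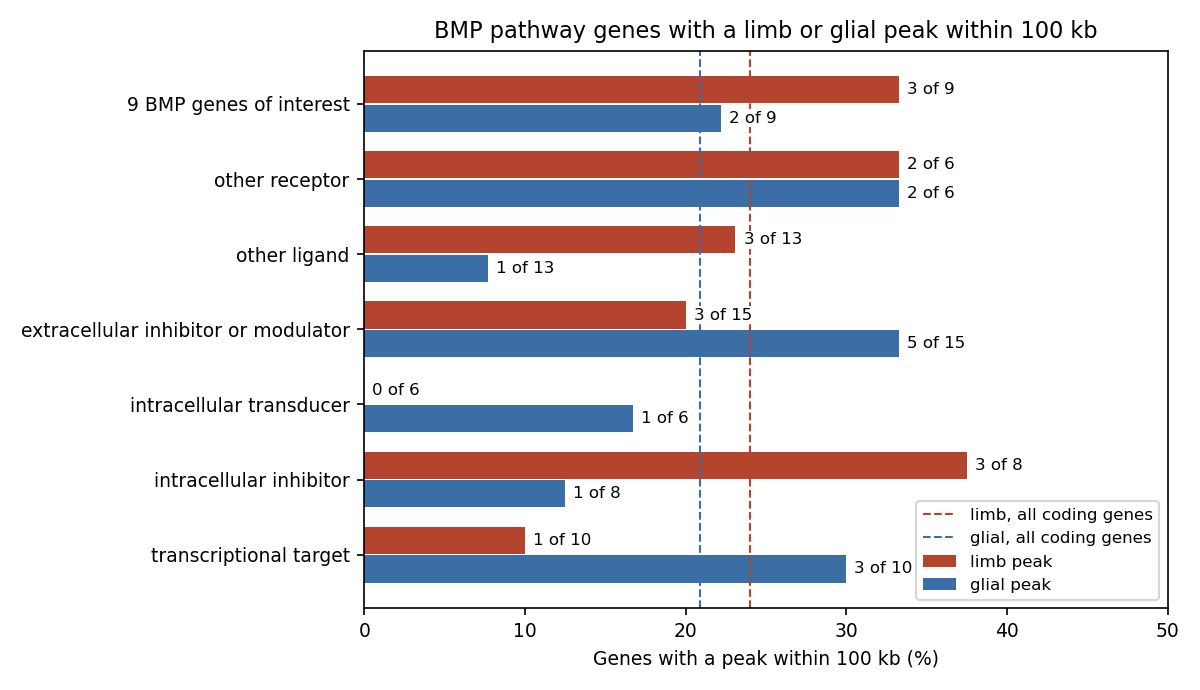
Percentage of genes with a limb peak (red) or a glial peak (blue) within 100 kb, for the 9 BMP genes and for 58 further pathway genes by role, with the number of genes beside each bar. Dashed lines give the shares of all protein-coding genes, 24% for the limb and 20.9% for the glial list.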

How the data were processed

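ChIRP-seq libraries of the limb and of the glial line (odd, even and input each) were mapped by the authors to mm9 with Bowtie 0.12.9, keeping unique reads, and normalized to total reads. They merged odd and even tracks by the minimum and called peaks against input with MACS, whose version is not given in the sources used here, nor is how the glial list was merged and called. The value used is the deposited score of each peak, the −log10 of its p-value multiplied by 10.

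Here peak positions (1-based) were compared with protein-coding gene bodies of GENCODE M1. Distances run from the body to the nearest peak edge, 0 meaning overlap, and an overlap of 1 bp counted. The longest body was used for the 1 pathway symbol with several gene entries. Probes were compared without gaps on both strands. The background is the share of all protein-coding genes. No test was run. Members, gene lists and the rule for named genes (the 9 genes, pathway genes with a peak, genes holding or nearest to a reported peak, and 5 genes like *Bmpr1b* in peak counts, ties broken by body length) were chosen with earlier results of these data known. The alternatives were other windows, p-values, gene models, repeat filters and match lengths. All 200 simulated peaks were rightly counted as within or beyond 100 kb, and all 100 simulated probe matches were recovered. Python 3.11.15, numpy 2.4.6, pandas 2.3.3, numba 0.67.0 and matplotlib 3.10.9 were used. Signal tracks, expression and H3K27ac were not analysed here.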

Additional observations from a re-analysis of the deposited data

How the results depend on the processing

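76 values were recomputed for 8 counts under the alternatives, and 52 were equal to the reported count or within 1.5 times of it. With a window of 25 kb or 50 kb the number of the 9 genes with a peak, and the *Bmpr1b* counts, were those reported. Thus 33.3% of the 9 genes had a limb peak against 9.94% and 15.1% of all protein-coding genes. The 33.3% includes *Bmpr1b*, which was known beforehand to have limb peaks. Of the 58 further genes 2 (3.45%) and 7 (12.1%) had one. The reading against the background therefore depends on the window. With 200 kb, 5 of the 9 genes had a limb peak (39.1% of all genes), 2 had one at the study threshold (13.0%) and 4 had a glial peak (34.4%), and 26 further genes had a limb peak. With 500 kb these counts were 8, 5, 6 and 41 (67.5%, 27.5% and 61.5% of all genes for a limb peak, one at the threshold and a glial peak), and 5 limb peaks near BMP genes had a probe match. *Bmpr1b* had 4 limb peaks in every window. With a p-value of 1e-30 or smaller, 1 of the 9 genes had a glial peak (11.6% of all genes) and 6 of the 58 further genes a limb peak (14.6%), and no *Bmpr1b* peak reached 1e-100, so that both counts at the threshold became 0. With distances from the outermost 5′ end, the number of BMP genes with a limb peak at the threshold, the limb peaks of *Bmpr1b* and those at the threshold were all 0, and 1 limb peak had a probe match, since the *Bmpr1b* peaks lie at the 3′ end of a long gene. An alternative chosen after seeing the data, the start of any transcript, gave 1 *Bmpr1b* peak at the threshold. Without repeated peaks 1 limb peak had a probe match, and with matches of 14 bases, or runs of 10 or 12 identical bases, 8, 4 and 1 did.

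The peak lists allowed no paired analysis, because each tissue has 1 list. The odd and even libraries were not analysed separately here. Read depth is unknown, and the absence of a peak from a list gives no limit on the signal there.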
